A study of Mus musculus with 12 samples.

Results

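The 33 genes described here belong to the unfolded protein response and the integrated stress response, measured in the mouse breast cancer line PB3. They were taken by symbol from the gene tables of 12 polyadenylated RNA libraries, all 33 were found among 55573 genes, and all 33 were among the 14226 genes with enough counts to be tested. Their levels were compared between 4 groups of 3 libraries. ERI-R, PAC-R and VIN-R are derivatives of PB3 made by exposure to eribulin (spelled Erubilin in the sample titles), paclitaxel or vinorelbine, and Control is the untreated parental line, PB3-Parental. The labels list 300, 500 and 800 nM for each drug and call the derivatives resistant clones, without saying whether a line is 1 clone or which dose the cells last saw. No genetic change is named in any group. Eribulin and vinorelbine block the growth of microtubules, and paclitaxel stabilises them. All groups were grown in supplemented DMEM/F12 medium and are labelled as lacking estrogen receptor, progesterone receptor and HER2. Transcripts of those receptors were present at low levels, with Esr1 between 5.05 and 14.3 CPM, Erbb2 between 16.8 and 52.8 CPM and Pgr between 0 and 8.61 CPM over the 12 libraries. CPM is the expected count of a gene relative to its library's total, after scaling of the libraries to each other.

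The unfolded protein response is the cell's answer to misfolded protein in the endoplasmic reticulum (ER), the compartment where secreted and membrane proteins fold. Its sensors sit in the ER membrane: IRE1 (gene Ern1) splices the mRNA of the transcription factor XBP1, PERK (Eif2ak3) phosphorylates the translation factor eIF2, and ATF6 is cut to release a transcription factor. Phosphorylated eIF2 slows protein synthesis while allowing translation of ATF4, a factor that raises genes of amino acid supply, and other eIF2 kinases reach the same step without ER stress, which makes it the integrated stress response. XBP1 and ATF6 raise chaperones, folding enzymes and the machinery of ER-associated degradation (ERAD). Splicing of Xbp1, cleavage of ATF6, phosphorylation of eIF2 and translation were not measured here, since the values are totals of RNA per gene.

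Some promoters of these genes carry elements through which ATF4 and ATF6 are known to act, and these are shown because the members are described below by these branches. Of the 33 genes, 30 matched a promoter in RefSeq (GRCm38.p6, 250 bases before to 50 after the start of the gene). Atf6, Hyou1 and Manf are named only. The ATF4 with C/EBP element, TGATGNAA, was searched on both strands and stood in 6 of the 30 genes, against 3.97% of 32851 promoters. The sites before the start are written 5′ to 3′ in the direction of the element, with its fixed letters in capitals and 8 bases on each side.
Nupr1: gccctgtcTGATGcAAtctggccc
Asns: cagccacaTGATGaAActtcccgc
Atf3: ggacttggTGATGcAAgtgcgaga
Chac1: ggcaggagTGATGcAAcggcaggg
Herpud1: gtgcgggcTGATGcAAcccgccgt
The Nupr1 element lies at chr7:126625573-126625580 and runs against the gene, as do those of Atf3, Chac1 and Herpud1, while that of Asns at chr6:7693225-7693232 runs with it. In Trib3 the match lies after the start, at chr2:152344039-152344046. By GENCODE M21 the sites of Nupr1 and Asns are inside an exon of a longer transcript of the same gene, and the other 3 lie outside the exons of their gene. No such letters stood in the windows of Psat1 or Atf4.

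The ER stress element, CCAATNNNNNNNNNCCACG, was likewise searched on both strands. It stood in 7 of the 30 genes, all of them chaperones or folding enzymes, against 0.119% of all promoters (39 of 32851).
Hspa5: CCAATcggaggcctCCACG
Hsp90b1, distal: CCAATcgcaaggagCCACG
Hsp90b1, proximal: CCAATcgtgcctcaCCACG
Calr: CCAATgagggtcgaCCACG
Canx: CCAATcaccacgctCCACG
Creld2: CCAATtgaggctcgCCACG
Dnajc3: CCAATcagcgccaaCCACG
Pdia6: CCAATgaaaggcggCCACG
The Hspa5 element lies at chr2:34772025-34772043, inside an exon of a longer transcript in GENCODE M21, and the elements of Hsp90b1 at chr10:86705638-86705656 and chr10:86705533-86705551, outside its exons. The shorter XBP1 and ATF6 element, TGACGTG, was found in 1 of the 30 genes, Hspa5, against 2.01% of all promoters, on both strands together. It starts 157 bases before the start and its longer element 65 bases before, so they do not overlap. A match is a description of the sequence and says nothing on binding in these cells.

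The libraries hold between 11141028 and 13454395 expected counts, and 3 counts correspond to between 0.223 and 0.269 CPM. The fewest counts of any member in a library were 6, for Dnajb9 in ERI-R 3. Libraries of every group differ in RNA of macrophages. Lyz2, the lysozyme of macrophages and granulocytes, lay between 182 and 1401 CPM in 8 libraries and at 0 in ERI-R 3, PAC-R 3, VIN-R 3 and Control 1. The sum of 15 macrophage markers was 716 to 4788 CPM in the 8 libraries and 18.4 to 167 CPM in those 4, where Lyz2, C1qa, C1qb, C1qc, Adgre1, Aif1, Tyrobp and Laptm5 were at 0. By group the sum ran over 167 to 1425 CPM in ERI-R, 41.8 to 4788 CPM in PAC-R, 32.1 to 4546 CPM in VIN-R and 18.4 to 2600.0 CPM in Control. The 167 CPM of ERI-R 3 was nearly all Cd14, at 163 CPM, and the next marker there, Cd68, stood at 2.735 CPM. Of 10 markers of other cell types, Cd3e (T cells), Cldn5 (endothelium) and Hbb-bs (erythroid cells) were at 0 in all 12, and Cd79a, Ncr1, Adipoq and Acta1 were at no more than 0.381 CPM. The endothelial Pecam1, which myeloid cells also carry, ran over 0.612 to 10.2 CPM in the 8 libraries, against 0.149 to 0.316 CPM in the other 4. Cdh5 ran over 0 to 2.697 CPM in all 12. The granulocyte gene S100a8 ran over 8.12 to 76.5 CPM in the 8 libraries, against 4.70 to 9.34 CPM in the other 4. In bulk RNA, fewer cells of a type and less RNA per cell cannot be told apart. The 4 libraries without macrophage RNA also had the lowest share of counts in mitochondrial genes, from 1.5% to 2.45%, against 3.22% to 4.35% in the 8 with it. ERI-R 3 and PAC-R 3 differed further. Ribosomal protein genes took 16.7% of the counts in ERI-R 3 and 9.01% in PAC-R 3 (3.84% to 6.88% in the other libraries) and Gm42418, a locus overlapping ribosomal RNA sequence, took 3.40% in ERI-R 3 (0.517% to 1.96% in the others). Long transcripts were low in both libraries. Against ERI-R 1 and 2, genes with transcripts of up to 1526 bases (the lower quartile) had a median log2 difference of 1.11 in ERI-R 3 and those with transcripts from 3636 bases (the upper quartile) one of -1.09. In PAC-R 3 against PAC-R 1 and 2 these medians were 0.43 and -0.63. The labels number the replicates without saying that they are separate cultures, so a p-value here covers the spread of these libraries alone, which may be technical.

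ERI-R against Control asks which stress genes differ after selection with eribulin. Nupr1 and Psat1 fell in ERI-R, and none of the 33 genes rose. Nupr1 encodes a small stress-induced chromatin protein that ATF4 raises, and Psat1 a transaminase of serine synthesis, also an ATF4 target. By edgeR's quasi-likelihood test at an adjusted p under 0.05, 0 of 33 were called higher and 2 lower. Over all genes tested, 9.51% were called higher and 9.69% lower. Of the 33 log2 fold changes, 28 were below 0, with a median of -0.70, beside -0.004 for all genes tested. At an unadjusted p under 0.05 there were 12. The share of all genes at that unadjusted threshold was not computed, for this comparison or for those below. The genes were chosen with earlier results of these data known, so these counts describe the set and do not test it. The group difference was not limited to stress genes: Epcam, an epithelial surface protein, was at 228 to 243 CPM in ERI-R, against 4.63 to 10.2 CPM in Control, and Vim, a mesenchymal filament protein, at 19.1 to 276 CPM in ERI-R, against 2441 to 3388 CPM in Control. The epithelial Cdh1 was also higher, at 94.4 to 320 CPM in ERI-R, against 7.08 to 12.9 CPM in Control. The epithelial keratins did not rise with them, and their groups overlapped. Krt8 had 177, 336 and 918 CPM in ERI-R, against 1090, 863 and 525 CPM in Control. Krt18 had 123, 187 and 879 CPM in ERI-R, against 1127, 844 and 742 CPM in Control.

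Nupr1 had 37.3, 14.3 and 51.5 CPM in ERI-R, against 192, 207 and 172 CPM in PAC-R, 232, 212 and 95.2 CPM in VIN-R and 123, 159 and 160.2 CPM in Control. The 3 ERI-R libraries were the lowest of the 12, and no other group reached down to them. The share of all genes tested whose ERI-R libraries lay apart from Control, or from all other groups, was not computed. Statements of this kind, here and below, therefore describe single genes and do not set them apart from other genes. Its log2 fold change in ERI-R against Control was -2.10 ± 0.47 (SE, n = 3 each, adjusted p = 0.0093). Leaving out single libraries gave values between -2.38 and -1.69, and the call was made under all 14 alternatives.

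Psat1 had 256, 226 and 189.9 CPM in ERI-R, against 422, 535 and 430.5 CPM in PAC-R, 475, 461 and 386 CPM in VIN-R and 544, 416 and 598 CPM in Control. Again the ERI-R libraries were the lowest, and each lay below all libraries of the other groups. The log2 fold change was -1.21 ± 0.25 (SE, n = 3 each, adjusted p = 0.0069). The call was lost without Control 1 (-1.09, adjusted p = 0.052) and in a fit of the 2 groups alone (adjusted p = 0.062), and without ERI-R 3 the value was -0.96.

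**Figure D1:**
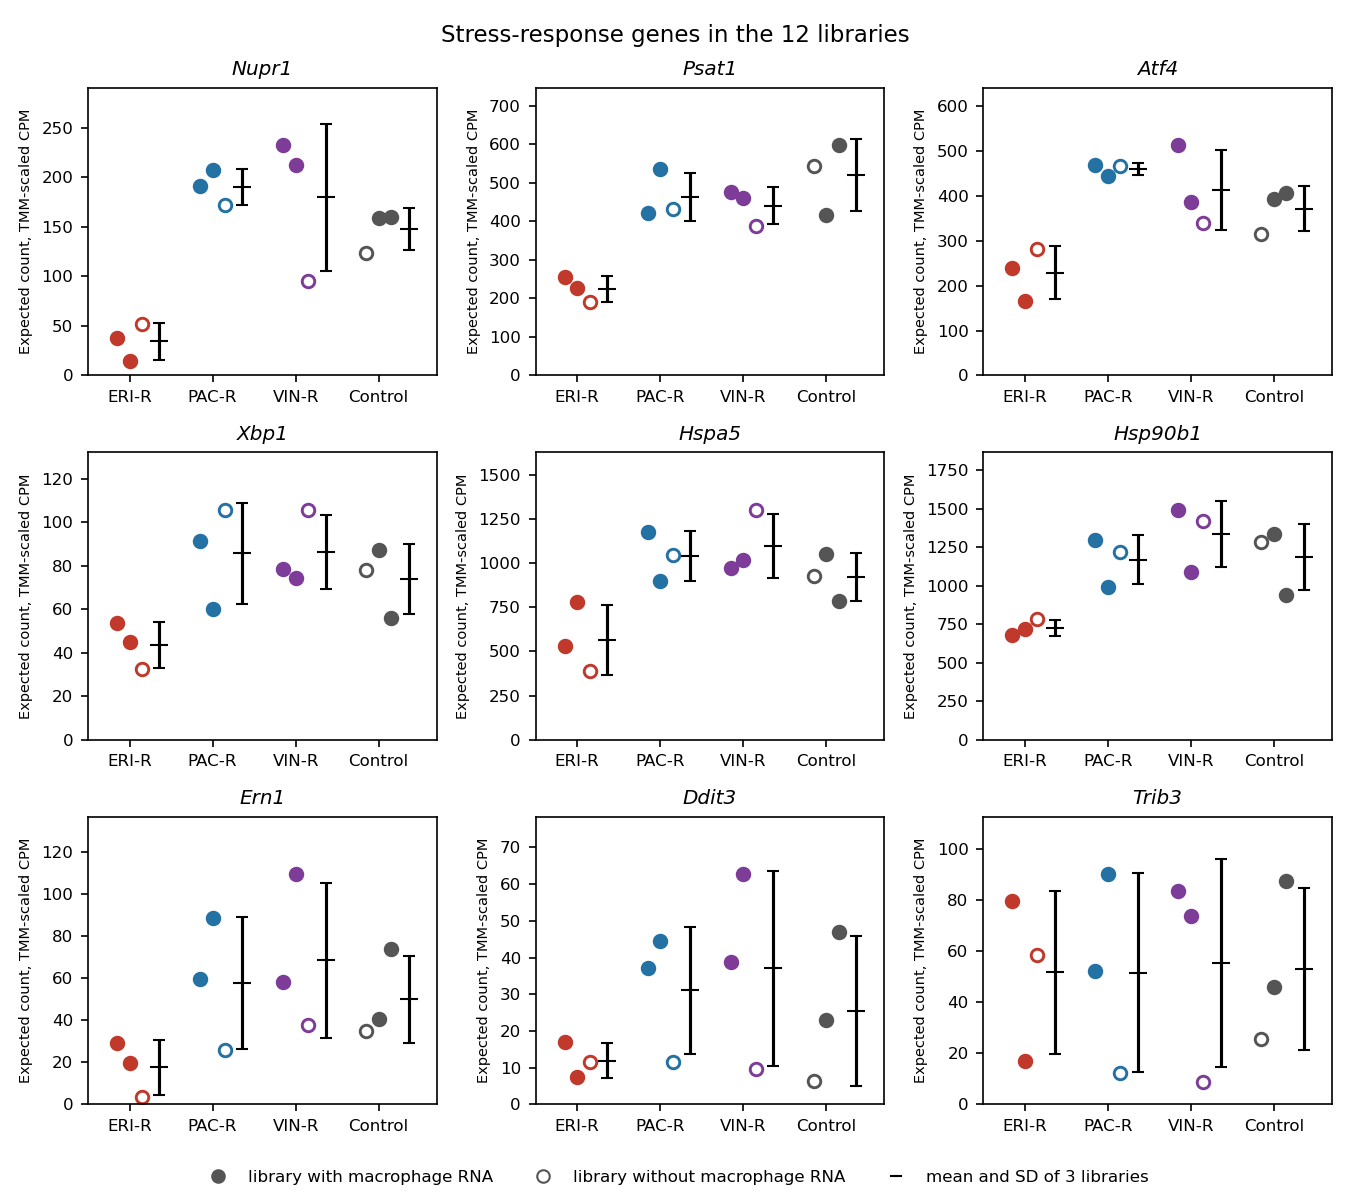
CPM of 9 genes in each library (points, ordered 1 to 3 within a group), with the mean and SD of 3 libraries beside them; filled points are libraries with macrophage RNA and open points those without. Nupr1, Psat1, Atf4, Xbp1, Hspa5 and Hsp90b1 lie lower in all 3 ERI-R libraries than in any other library, narrowly for Xbp1 and Hspa5. Ddit3 and Trib3 spread widely within each group.

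A term for macrophage RNA in the fit (Lyz2 above 100 CPM) lowered the spread, with a common biological coefficient of variation of 0.352, beside 0.591 without it. With the term, 0 of the 33 genes were called higher and 9 lower in ERI-R against Control, where 14.6% of all genes were called higher and 16.7% lower. The 9 were Nupr1 (-2.07), Ern1 (-1.80), Dnajb9 (-1.62), Atf6 (-1.61), Psat1 (-1.22), Herpud1 (-1.01), Sel1l (-0.86), Hsp90b1 (-0.71) and Dnajc3 (-0.67), as log2 fold changes. In the 8 libraries with macrophage RNA alone, 3 were lower (Nupr1, Psat1 and Dnajb9) and 0 higher, where 12% of all genes were called higher and 10.7% lower. In fits with no macrophage RNA term, leaving out ERI-R 1 gave 4 calls, with Atf6 (-2.02) and Herpud1 (-1.54) added to Nupr1 and Psat1. Leaving out Control 1 gave 1. The share of all genes called was not computed for these fits.

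**Figure D2:**
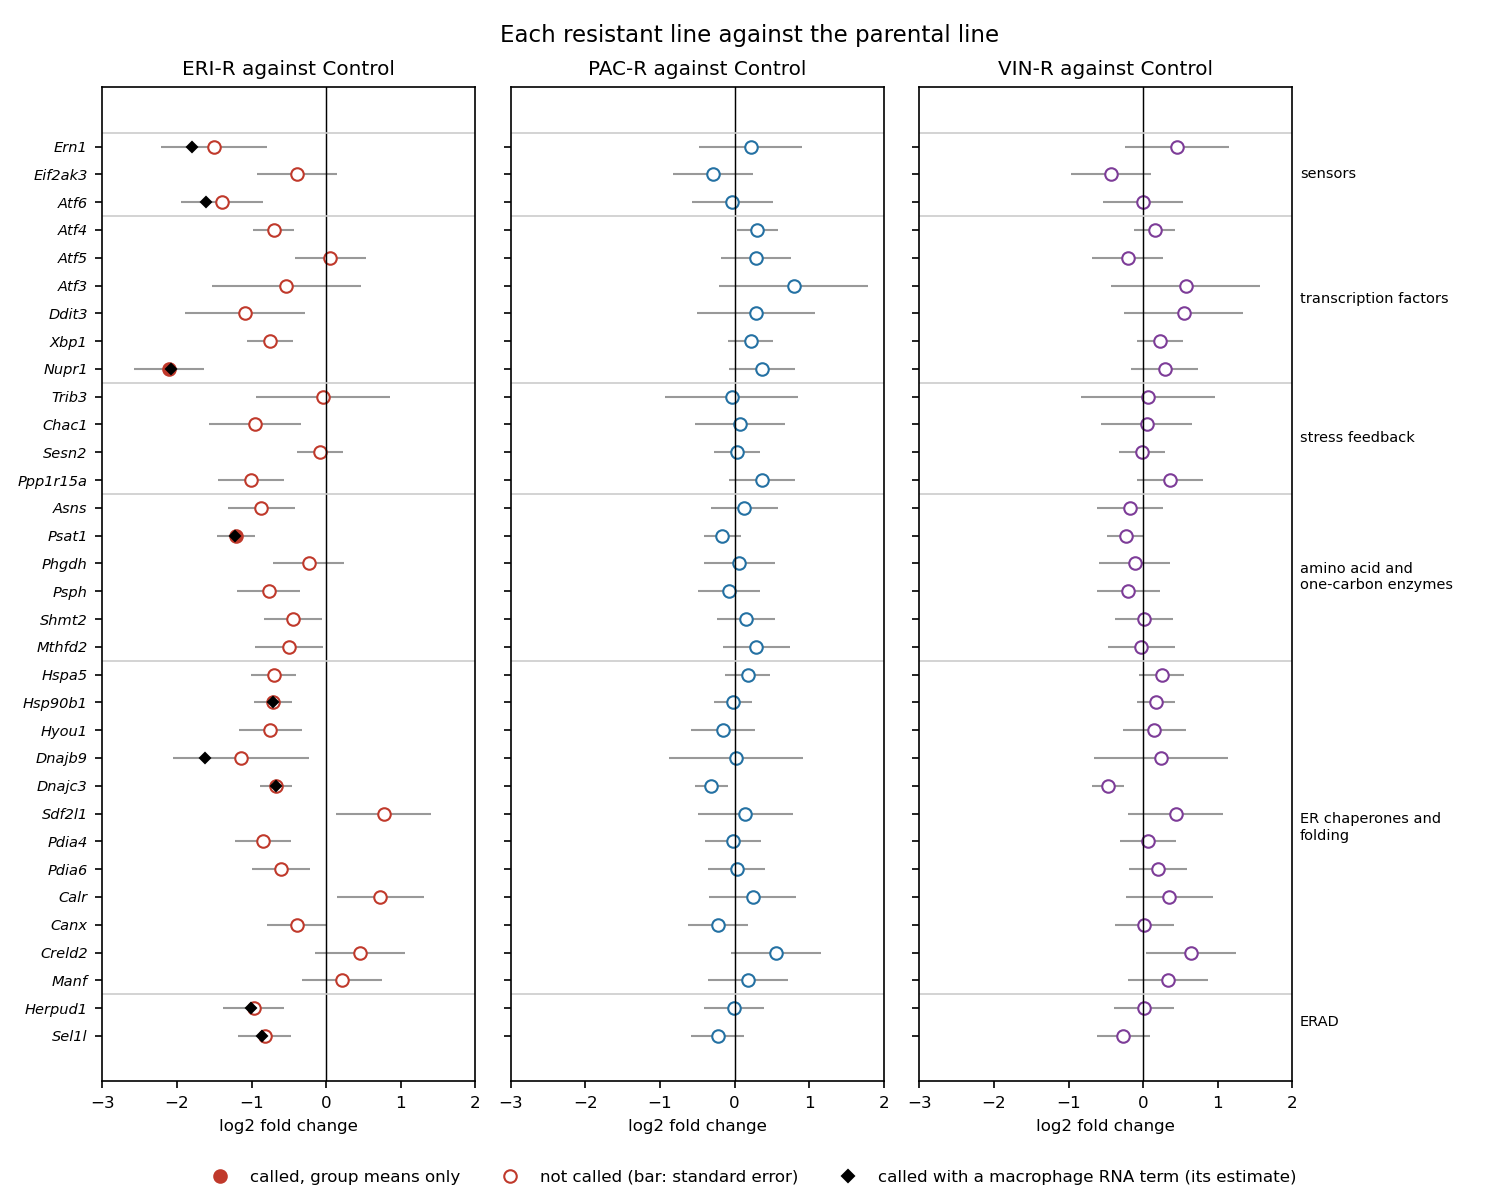
Log2 fold change of the 33 genes (rows, grouped by role) in ERI-R, PAC-R and VIN-R against Control, with bars of 1 standard error; filled circles are called without a macrophage RNA term and black diamonds mark genes called with it, at that estimate. In ERI-R 2 genes have filled circles and 9 have diamonds, all below 0, and the panels of PAC-R and VIN-R hold neither.

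The sensors are long transcripts and were lowest in ERI-R 3. Ern1 had 29.3, 19.6 and 3.68 CPM in ERI-R, against 59.5, 88.2 and 25.6 CPM in PAC-R, 58.1, 109 and 37.7 CPM in VIN-R and 35.0, 40.8 and 73.6 CPM in Control. The ERI-R libraries lay below the Control libraries but overlapped PAC-R, and the log2 fold change against Control was -1.50 ± 0.71 (SE, n = 3 each, adjusted p = 0.18), called only with the macrophage RNA term (adjusted p = 0.011) among the 14 alternatives. Without ERI-R 3 it was -0.88.
Atf6 had 84.6, 47.8 and 15.04 CPM in ERI-R, against 137, 174 and 68.0 CPM in PAC-R, 106, 172 and 109.6 CPM in VIN-R and 135, 106 and 146 CPM in Control. Its ERI-R libraries lay below those of Control and VIN-R, with a log2 fold change of -1.39 ± 0.55 against Control (SE, n = 3 each, adjusted p = 0.11) and -0.82 without ERI-R 3. Eif2ak3 had 22.9, 20.8 and 3.58 CPM in ERI-R, against 17.7, 17.2 and 15.7 CPM in PAC-R, 12.9, 11.4 and 21.6 CPM in VIN-R and 22.7, 18.6 and 20.8 CPM in Control. Apart from ERI-R 3, its ERI-R libraries were level with Control, and the log2 fold change was -0.39 ± 0.54 (SE, n = 3 each, adjusted p = 0.69). The mean transcript lengths were 6579 bases for Ern1, 7018 for Atf6 and 4356 for Eif2ak3. Over the 33 genes, Spearman's correlation between transcript length and the log2 difference of ERI-R 3 to ERI-R 1 and 2 was -0.62, a description across genes of 1 library. The part of transcript length in the sensors' values was not tested.

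Among the transcription factors, Atf4, the central factor of the integrated stress response, had 238, 166 and 282 CPM in ERI-R, against 469, 444 and 466 CPM in PAC-R, 513, 387 and 339 CPM in VIN-R and 316, 392.3 and 408 CPM in Control. All 3 ERI-R libraries lay below every other library, for which the share of all genes was not computed. The log2 fold change against Control was -0.70 ± 0.28 (SE, n = 3 each, adjusted p = 0.11), not called. Xbp1 had 53.6, 44.9 and 32.6 CPM in ERI-R, against 91.4, 60.2 and 105 CPM in PAC-R, 78.3, 74.6 and 106 CPM in VIN-R and 78.1, 87.5 and 56.0 CPM in Control. The ERI-R libraries lay below the others, although ERI-R 1 came within a few CPM of Control 3, and the log2 fold change of -0.76 ± 0.31 (SE, n = 3 each, adjusted p = 0.12) was not called. Ddit3, which encodes the pro-apoptotic factor CHOP, had 16.9, 7.40 and 11.5 CPM in ERI-R, against 37.1, 44.6 and 11.5 CPM in PAC-R, 38.8, 62.8 and 9.52 CPM in VIN-R and 6.43, 23.0 and 47.0 CPM in Control. Its groups overlapped, and the libraries without macrophage RNA were the lowest in PAC-R, VIN-R and Control. The log2 fold change against Control was -1.09 ± 0.80 (SE, n = 3 each, adjusted p = 0.41). A second gene record of the symbol Ddit3 overlaps it on chromosome 10 and held at most 5.42 counts in a library. Atf3 and Atf5, both raised by ATF4 in stress, had log2 fold changes of -0.53 ± 1.00 and 0.06 ± 0.47 (SE, n = 3 each), with overlapping groups. Without ERI-R 3 they were 0.12 and -0.40, and without ERI-R 1 that of Atf3 was -1.59, so both signs change when 1 library is left out.

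The genes grouped here as feedback genes are Trib3, Ppp1r15a, Chac1 and Sesn2, of which Trib3 and Ppp1r15a dampen the response. Trib3, a pseudokinase that inhibits ATF4 and CHOP, had 79.7, 16.9 and 58.6 CPM in ERI-R, against 52.4, 90.3 and 12.2 CPM in PAC-R, 83.8, 73.8 and 8.71 CPM in VIN-R and 25.6, 46.0 and 87.7 CPM in Control. Within each group its libraries differed several-fold, more than the group means did, and the log2 fold change was -0.04 ± 0.90 (SE, n = 3 each, adjusted p = 0.99). Ppp1r15a encodes GADD34, which brings a phosphatase to eIF2, and had 35.3, 13.7 and 35.1 CPM in ERI-R, against 78.0, 84.2 and 55.4 CPM in PAC-R, 62.8, 108 and 46.2 CPM in VIN-R and 40.2, 50.6 and 78.2 CPM in Control. The ERI-R libraries lay below all others, and the log2 fold change of -1.01 ± 0.45 (SE, n = 3 each, adjusted p = 0.15) was not called against Control. Chac1, which breaks down glutathione, averaged 13.8 ± 8.91 CPM in ERI-R, against 26.8 ± 6.55 CPM in Control (mean ± SD of 3 libraries), a difference of -0.95 on the log2 scale. Sesn2, a leucine sensor upstream of mTORC1, averaged 46.0 ± 5.02 CPM in ERI-R, against 48.6 ± 12.7 CPM in Control (mean ± SD of 3 libraries), a difference of -0.08 on the log2 scale.

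All 6 enzymes of amino acid and one-carbon supply had log2 fold changes below 0 in ERI-R against Control, with a median of -0.64 and Psat1 as the 1 called. Asns, asparagine synthetase, had 160.4, 88.8 and 134 CPM in ERI-R, against 220.2, 387 and 159.5 CPM in PAC-R, 241, 260.1 and 118 CPM in VIN-R and 199.6, 159.8 and 340.2 CPM in Control. ERI-R 1 overlapped the lowest Control library, and the log2 fold change was -0.87 ± 0.45 (SE, n = 3 each, adjusted p = 0.22). Phgdh, which makes the first step of serine synthesis, had 116, 123 and 382 CPM in ERI-R, against 173, 232 and 357 CPM in PAC-R, 214, 184 and 279 CPM in VIN-R and 287, 180.2 and 262 CPM in Control. ERI-R 3 was the highest library of all and ERI-R 1 and 2 the lowest, so the log2 fold change of -0.23 ± 0.48 (SE, n = 3 each) averages over libraries that differ. Per length, on the TPM scale, Phgdh stood at 175 ± 10.3 TPM in ERI-R and 294 ± 80.7 TPM in Control (SD, n = 3 each). Unlike CPM here, the deposited TPM carries no scaling of the libraries to each other, so these means do not measure the group difference. ERI-R 3 had 178 TPM, beside 184 and 164 TPM in ERI-R 1 and 2, although its CPM was the highest. Psph, the phosphatase that ends serine synthesis, Shmt2, which passes the carbon of serine to folate in mitochondria, and Mthfd2, the next mitochondrial folate enzyme, had log2 fold changes of -0.77 ± 0.42, -0.45 ± 0.39 and -0.50 ± 0.45 (SE, n = 3 each). None of these 3 was called.

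Of the 12 ER chaperones and folding enzymes, 8 had log2 fold changes below 0 and 4 above, and none was called without the macrophage RNA term. Hspa5, the chaperone BiP that holds the sensors inactive, had 528, 780.1 and 387 CPM in ERI-R, against 1176, 898 and 1045 CPM in PAC-R, 969.8, 1015 and 1302 CPM in VIN-R and 928, 1052 and 783 CPM in Control. The ERI-R libraries lay below the others, with ERI-R 2 just under the lowest Control library, and the log2 fold change was -0.70 ± 0.30 (SE, n = 3 each, adjusted p = 0.14). Hsp90b1, the ER form of HSP90, had 681, 718 and 784 CPM in ERI-R, against 1297, 994 and 1215 CPM in PAC-R, 1493, 1091 and 1422 CPM in VIN-R and 1284, 1337 and 942 CPM in Control. Here the ERI-R libraries were close together and below all others, with a log2 fold change of -0.71 ± 0.26 (SE, n = 3 each, adjusted p = 0.083, and 0.043 with the macrophage RNA term). Dnajc3, a co-chaperone of BiP, had 67.9, 83.1 and 62.4 CPM in ERI-R, against 101, 92.8 and 79.4 CPM in PAC-R, 79.8, 77.0 and 88.1 CPM in VIN-R and 104, 123 and 113 CPM in Control. The ERI-R libraries lay below those of Control and overlapped PAC-R and VIN-R, and the log2 fold change of -0.67 ± 0.22 (SE, n = 3 each) missed the threshold (adjusted p = 0.054, and 0.019 with the term).

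Dnajb9, a BiP co-chaperone that also represses IRE1, had 18.0, 19.4 and 0.631 CPM in ERI-R, against 40.5, 35.2 and 9.49 CPM in PAC-R, 34.9, 47.7 and 16.8 CPM in VIN-R and 16.7, 31.9 and 35.5 CPM in Control. The ERI-R value in the third library rested on 6 counts, and the log2 fold change was -1.14 ± 0.91 (SE, n = 3 each, adjusted p = 0.46, and 0.049 with the macrophage RNA term). Without ERI-R 3 it was -0.44. Calr, the lectin chaperone calreticulin, had 396, 527 and 1328 CPM in ERI-R, against 552, 262 and 795 CPM in PAC-R, 525, 368 and 843 CPM in VIN-R and 589.5, 548 and 224 CPM in Control. ERI-R 3 exceeded every other library, and the log2 fold change of 0.72 ± 0.58 (SE, n = 3 each) was not called. Sdf2l1, a partner of BiP complexes, had 14.5, 18.5 and 42.4 CPM in ERI-R, against 16.1, 6.32 and 26.2 CPM in PAC-R, 18.0, 9.60 and 32.0 CPM in VIN-R and 20.6, 16.1 and 7.43 CPM in Control. Its highest library was again ERI-R 3, and the log2 fold change was 0.77 ± 0.64 (SE, n = 3 each). The other folding genes were Hyou1, a large HSP70 relative (-0.75), the disulfide isomerases Pdia4 (-0.84) and Pdia6 (-0.60), the lectin chaperone Canx (-0.39), the isomerase-like Creld2 (0.46) and the secreted protective factor Manf (0.21), as log2 fold changes, none called.

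Both ERAD genes had log2 fold changes below 0. Herpud1, a scaffold of the degradation complex, had 36.9, 15.9 and 13.4 CPM in ERI-R, against 49.9, 44.6 and 35.0 CPM in PAC-R, 57.1, 43.7 and 29.7 CPM in VIN-R and 33.2, 47.0 and 49.5 CPM in Control. ERI-R 1 overlapped Control 1, and the log2 fold change was -0.97 ± 0.41 (SE, n = 3 each, adjusted p = 0.13, and 0.023 with the macrophage RNA term). Sel1l, the partner of the ubiquitin ligase HRD1, had 112, 84.1 and 56.9 CPM in ERI-R, against 146, 159.9 and 75.8 CPM in PAC-R, 102, 158 and 112 CPM in VIN-R and 132, 133 and 181 CPM in Control. ERI-R lay below Control and overlapped PAC-R and VIN-R, with a log2 fold change of -0.82 ± 0.36 against Control (SE, n = 3 each, adjusted p = 0.15, and 0.031 with the term).

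Taken as branches, the 14 ATF4 targets (Atf3, Atf5, Ddit3, Nupr1, the 4 feedback genes and the 6 enzymes) and the 14 chaperone and ERAD genes gave similar medians over 3 libraries and different ones over 2. In ERI-R against Control the median log2 fold change was -0.65 for the ATF4 targets, with 13 of 14 below 0, and -0.69 for the chaperone and ERAD genes, with 10 of 14 below 0. In the 8 libraries with macrophage RNA, that is without ERI-R 3 and Control 1, it was -0.88 with 14 of 14 below 0 and -0.32 with 11 of 14 below 0. The difference between the branches was not tested. The mean log2 CPM of the ATF4 targets was 5.99, 4.97 and 5.81 in ERI-R 1 to 3, against 6.03, 6.32 and 6.80 in Control 1 to 3. For the chaperone and ERAD genes it was 6.79, 6.95 and 6.55 in ERI-R, against 7.37, 7.45 and 6.97 in Control.

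**Figure D3:**
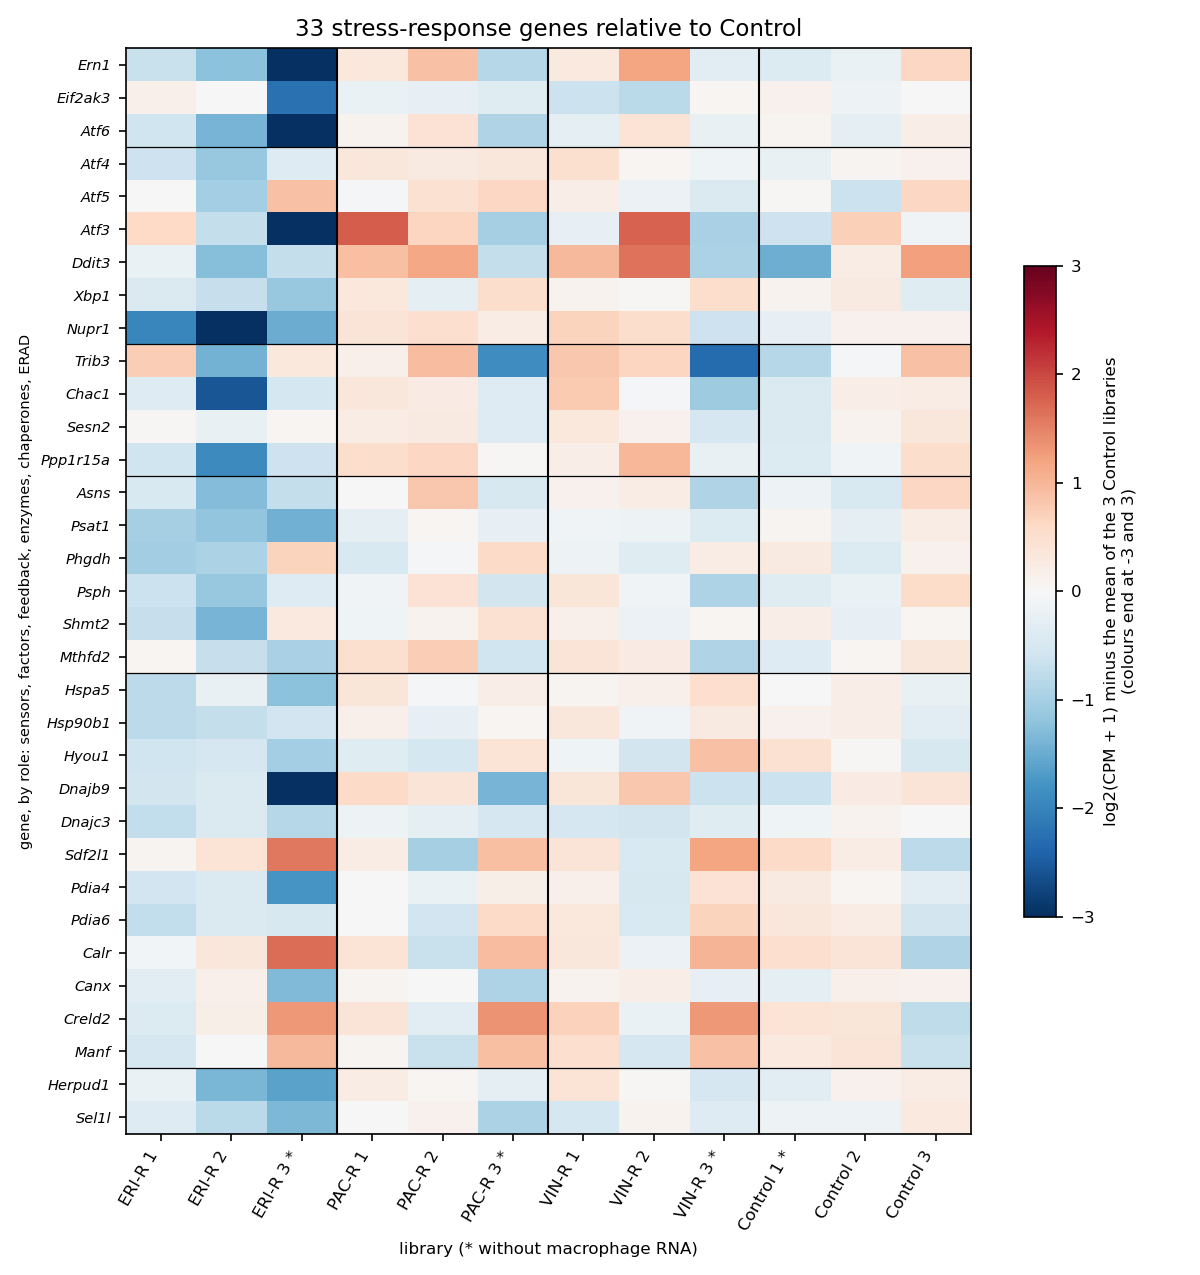
Log2(CPM + 1) of the 33 genes (rows, by role) in the 12 libraries (columns), minus the mean of the 3 Control libraries; blue is lower and red higher, and an asterisk marks a library without macrophage RNA. Rows of Nupr1 and Psat1 are blue in all 3 ERI-R columns, as are those of further genes such as Atf4 and Hsp90b1. The deepest blue is Dnajb9 in ERI-R 3 (-4.09), a column that is red for Calr and Sdf2l1.

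PAC-R against Control asks the same of paclitaxel. None of the 33 genes was called in either direction, and 0% of all genes were called higher and 0% lower, by edgeR. No member reached an unadjusted p under 0.05, and DESeq2 called 0 as well. The median log2 fold change was 0.07 over the 33 genes, with 21 above 0, beside 0.05 over all genes. Nupr1 averaged 190.2 ± 17.9 CPM in PAC-R and 148 ± 20.9 CPM in Control (mean ± SD of 3 libraries), a difference of 0.37 ± 0.45 (SE on the log2 scale). The 3 PAC-R libraries lay above the 3 Control libraries for Nupr1 and for Atf4, and below them for Dnajc3 and for Eif2ak3. The share of all genes that did not overlap was not computed for this comparison. Atf4 had 0.31 ± 0.27 and Hspa5 0.17 ± 0.30 (log2 fold change ± SE, n = 3 each). The sizes ran from -0.31 (Dnajc3) to 0.79 (Atf3, SE 1.00). With the macrophage RNA term, 0 members were called, beside 0.0141% of all genes called higher and 0.00703% lower.

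VIN-R against Control gave the same count for vinorelbine. Again 0 members were called by edgeR, where 0% of all genes were called higher and 0% lower, 0 members had an unadjusted p under 0.05, and DESeq2 called 0 with 1 member at an unadjusted p under 0.05. The median log2 fold change was 0.07 with 22 of 33 above 0, beside 0.04 over all genes. Dnajc3 averaged 81.7 ± 5.74 CPM in VIN-R and 113 ± 9.23 CPM in Control (mean ± SD of 3 libraries), a difference of -0.47 ± 0.22 (SE on the log2 scale). Its VIN-R libraries all lay below the Control libraries, as did those of ERI-R and PAC-R. The share of all genes for which this held was not computed. Nupr1 averaged 180.0 ± 74.2 CPM in VIN-R and 148 ± 20.9 CPM in Control (mean ± SD of 3 libraries), a difference of 0.29 ± 0.45 (SE on the log2 scale). Among the chaperones, 11 of 12 log2 fold changes were above 0, with a median of 0.22, none called. With the macrophage RNA term 0 members were called, beside 0.00703% of all genes called higher and 0.0141% lower.

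ERI-R was also set against the other lines. These comparisons use the same 3 ERI-R libraries as the comparison with Control, so their values are given side by side. Against PAC-R, Nupr1, Psat1 and Atf4 fell, that is 3 of 33 lower and 0 higher, where 9.19% of all genes were called higher and 9.55% lower. Nupr1 averaged 34.4 ± 18.7 CPM in ERI-R, against 190.2 ± 17.9 CPM in PAC-R (mean ± SD of 3 libraries), a difference of -2.47 ± 0.47 (SE on the log2 scale, adjusted p = 0.0046). Psat1 averaged 224 ± 33.1 CPM in ERI-R, against 462 ± 62.9 CPM in PAC-R, a log2 fold change of -1.04 ± 0.25 (adjusted p = 0.015), not called without ERI-R 2 (-1.03) or PAC-R 2 (-0.94), with no filter on low counts, in the 8 libraries with macrophage RNA (-0.89) or in the 2 groups alone. Atf4 averaged 229 ± 58.4 CPM in ERI-R, against 459.6 ± 13.7 CPM in PAC-R, with a log2 fold change of -1.005 ± 0.28 (adjusted p = 0.027). The Atf4 call rested on all but 1 of the 6 libraries, since it was lost without ERI-R 1 (-1.03), ERI-R 2 (-0.80), PAC-R 1 (-1.004), PAC-R 2 (-1.04) or PAC-R 3 (-1.01), and it was also lost with no filter and in the 2 groups alone. The median over the 33 genes was -0.70, with 29 below 0, beside -0.05 over all genes.

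Against VIN-R, 4 of 33 fell, Nupr1, Psat1, Xbp1 and Hsp90b1, and 0 rose, where 9.55% of all genes were called higher and 9.74% lower. Nupr1 averaged 34.4 ± 18.7 CPM in ERI-R, against 180.0 ± 74.2 CPM in VIN-R (mean ± SD of 3 libraries), a difference of -2.39 ± 0.47 (SE on the log2 scale, adjusted p = 0.0047). Psat1 had a log2 fold change of -0.98 ± 0.25 (adjusted p = 0.019), a call that did not hold without ERI-R 2 (-0.96), ERI-R 3 (-0.74), VIN-R 1 (-0.93) or VIN-R 2 (-0.96), with no filter, in the 8 libraries with macrophage RNA (-0.85) or in the 2 groups alone. Xbp1 averaged 43.7 ± 10.5 CPM in ERI-R, against 86.2 ± 17.0 CPM in VIN-R, a log2 fold change of -0.98 ± 0.31 (adjusted p = 0.049), and was not called after leaving out any 1 of the 6 libraries, ERI-R 1 (-1.15), ERI-R 2 (-0.98), ERI-R 3 (-0.68), VIN-R 1 (-1.06), VIN-R 2 (-1.09) and VIN-R 3 (-0.82). Among the other alternatives, its call held only with the macrophage RNA term, with DESeq2 and with a filter of 1 CPM in 3 libraries. Hsp90b1 averaged 728 ± 52.2 CPM in ERI-R, against 1335 ± 215 CPM in VIN-R, a log2 fold change of -0.88 ± 0.26 (adjusted p = 0.035), held among these removals only without VIN-R 2 (-1.02) and lost without ERI-R 1 (-0.83), ERI-R 2 (-0.85), ERI-R 3 (-0.80), VIN-R 1 (-0.80) or VIN-R 3 (-0.84), with no filter, with the replicate block (-0.87), in the 8 libraries with macrophage RNA (-0.78) or in the 2 groups alone. The median over the 33 genes was -0.80, with 29 below 0, beside -0.03 over all genes. The number of calls was 2 without ERI-R 2, ERI-R 3 or VIN-R 2 and 1 without VIN-R 1. For these fits the share of all genes called was not computed.

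With the macrophage RNA term, 9 members were lower in ERI-R against PAC-R (13.9% of all genes called higher, 15.4% lower) and 11 against VIN-R (13.9% higher, 15.8% lower), and 0 were higher in either. Beside Nupr1 and Psat1, the genes lower in both were Ern1 (-1.86 and -2.17, log2 fold changes against PAC-R and VIN-R), Atf6 (-1.43 and -1.55), Ppp1r15a (-1.31 and -1.29), Herpud1 (-1.02 and -0.996), Atf4 (-1.002 and -0.84), Xbp1 (-0.95 and -0.96) and Hspa5 (-0.89 and -0.96). Dnajb9 (-1.79) and Hsp90b1 (-0.88) were further called against VIN-R. In the 8 libraries with macrophage RNA, Eif2ak3 was called higher against VIN-R (log2 fold change 0.95, adjusted p = 0.022), the 1 call in that direction beside 6 lower, where 12.9% of all genes were called higher and 11% lower. It was called in only 1 of the 14 alternatives, and its log2 fold changes ran from -0.32 to 0.95. Over all 12 libraries it averaged 15.7 CPM in ERI-R and 15.3 CPM in VIN-R. PAC-R against VIN-R gave 0 calls among the members, with 0% of all genes called higher and 0% lower, with or without the term (0% and 0%), 0 members at an unadjusted p under 0.05, and a median of -0.01.

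The members also differ within each group by macrophage RNA, a division read from the data and not one of the study's groups, so it is described without a test. Of the 33 genes, 1 lay higher in all 8 libraries with macrophage RNA than in the 4 without, and 3 lay lower, beside 13.3% and 8.18% of all genes tested. Dnajb9, the higher one, lay between 18.0 and 47.7 CPM (median 35.1) with macrophage RNA and between 0.631 and 16.8 CPM (median 13.1) without. Phgdh lay between 116 and 262 CPM (median 182) with it and 279 and 382 CPM (median 322) without. Sdf2l1 lay between 6.32 and 18.5 CPM (median 15.3) with it and 20.6 and 42.4 CPM (median 29.1) without, and Calr between 224 and 552 CPM (median 461) with it and 590 and 1328 CPM (median 819) without.

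Several members moved the same way with macrophage RNA in all 4 groups, on the log2 scale of 2 libraries with it minus 1 without. The share of all genes tested that did so was not computed, so these lists describe the members and do not set them apart from other genes. Higher with it in every group were Atf3 (a mean difference of 2.199), Dnajb9 (2.07), Ddit3 (1.64), Ern1 (1.48), Mthfd2 (0.94), Canx (0.77), Herpud1 (0.67) and Sel1l (0.56). Lower in every group were Sdf2l1 (-1.12), Creld2 (-1.06), Calr (-1.003), Manf (-0.87), Phgdh (-0.84), Shmt2 (-0.54), Pdia6 (-0.52) and Hsp90b1 (-0.14). Trib3 differed by 2.502 in PAC-R, 3.10 in VIN-R and 1.37 in Control but by -0.28 in ERI-R. Nupr1 differed by -0.98 in ERI-R, against 0.21, 1.22 and 0.37 in PAC-R, VIN-R and Control. The mitochondrial share was lower in all 4 libraries without macrophage RNA, and long transcripts were lower and ribosomal protein genes higher in ERI-R 3 and PAC-R 3. The part of macrophage transcripts, of these shares and of transcript length in these differences was not tested.

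**Figure D4:**
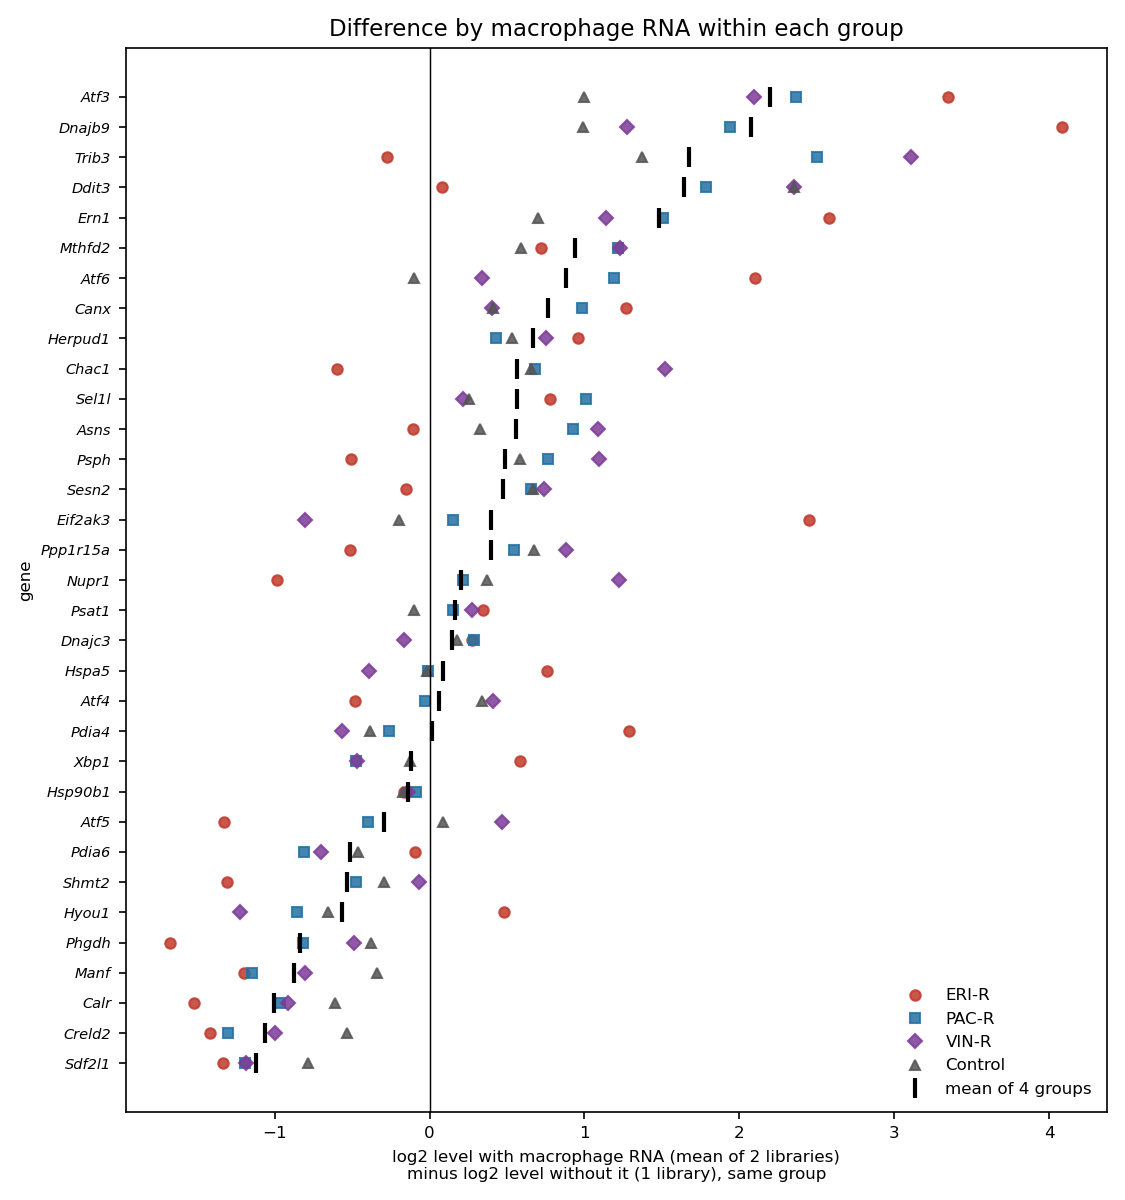
Difference in log2 level of each gene (rows, sorted by mean) between libraries with macrophage RNA and the library without it, 1 point per group; the black bar is the mean of the 4 groups. All 4 points lie above 0 for 8 genes and below 0 for 8 genes, and the points of ERI-R lie farthest out for Dnajb9, Atf3 and Ern1.

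Levels of different genes are set side by side per length, on the TPM scale. The deposited TPM carries no scaling of the libraries to each other, so the order of genes within a group is described. A gene's TPM in ERI-R and in Control does not measure its change. In ERI-R 3, Atf4 (282 CPM, 145.7 TPM) and Hsp90b1 (784 CPM, 237 TPM) were the highest of the ERI-R libraries by CPM and the lowest by TPM. In ERI-R the most abundant members were Calr at 634 ± 105 TPM, Canx at 437 ± 83.5 TPM, Hsp90b1 at 409 ± 149.8 TPM and Hspa5 at 393 ± 238 TPM (SD, n = 3), and in Control they were Hsp90b1 at 723 ± 124 TPM, Hspa5 at 658 ± 81.9 TPM, Calr at 483 ± 201 TPM and Canx at 408 ± 25.3 TPM (SD, n = 3). Apart from Calr over Canx in ERI-R, neighbours in this order differed by less than the sum of their SDs. Atf4, Psat1 and Nupr1 came next in Control, at 385 ± 45.1 TPM, 381 ± 75.6 TPM and 373 ± 49.1 TPM, and stood at 212 ± 82.3 TPM, 169 ± 68.4 TPM and 80.0 ± 45.5 TPM in ERI-R. Of the sensors, Ern1 and Eif2ak3 were the lowest members in both groups, with Ern1 at 5.08 ± 4.42 TPM in ERI-R and 12.4 ± 5.47 TPM in Control and Eif2ak3 at 6.77 ± 5.32 TPM in ERI-R and 7.84 ± 0.952 TPM in Control, while Atf6 stood at 12.7 ± 10.8 TPM in ERI-R and 29.5 ± 5.99 TPM in Control.

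Other genes of the same pathways were described by lists that do not overlap the members. Beside the list counts for ERI-R against Control, 9.51% of all genes tested were called higher and 9.69% lower by edgeR. Of 30 tested genes of ER folding and export, 0 were called in ERI-R against Control by edgeR (3 at an unadjusted p under 0.05) and 1 by DESeq2, with a median log2 fold change of 0.10. Of 19 other ERAD genes, 1 was lower, Edem1, a lectin that directs misfolded glycoproteins to degradation (median -0.22). Edem1 had 92.9, 77.0 and 64.9 CPM in ERI-R, against 152, 161 and 134 CPM in Control, below Control in all 3 libraries (log2 fold change -0.93, adjusted p = 0.024). Its call was lost without each library other than ERI-R 1, at values between -1.01 and -0.67, and with no filter, in the 8 libraries with macrophage RNA (-0.69) and in the 2 groups alone.

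Of 24 other genes of eIF2 and of stress sensing, 2 were higher and 3 lower in ERI-R against Control (median 0.10). Eif2ak1, the heme-regulated eIF2 kinase, had 112, 138 and 122 CPM in ERI-R, against 51.2, 51.6 and 47.1 CPM in Control. All ERI-R libraries stood above all Control libraries (log2 fold change 1.31, adjusted p = 0.0033), and the call was made in all 14 alternatives. Eif2b4, a subunit of the exchange factor of eIF2, had 39.7, 48.1 and 191 CPM in ERI-R, against 14.4, 14.3 and 10.8 CPM in Control. ERI-R 3 carried much of that mean (log2 fold change 2.82, and 1.88 without ERI-R 3, called in both). Eif2ak4, the eIF2 kinase GCN2 that senses amino acid shortage, had 29.6, 25.7 and 20.3 CPM in ERI-R, against 58.0, 42.9 and 49.3 CPM in Control. It fell (log2 fold change -0.99, adjusted p = 0.012), but was not called without Control 1 (-0.78), in the 8 libraries with macrophage RNA (-0.65), with no filter or in the 2 groups alone. The site-1 protease Mbtps1, which cuts ATF6, had a log2 fold change of -1.22 (lost without Control 1 at -0.91, ERI-R 2 at -1.19 or ERI-R 3 at -0.90, with no filter, in the 8 libraries with macrophage RNA at -0.72 and in the 2 groups alone). The ATF6 relative Creb3l2 had -1.65 (lost without Control 1 at -1.31 and in the 2 groups alone).

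Of 29 other ATF4 targets, 2 were higher and 3 lower (median -0.19). Cbs, which makes cystathionine from homocysteine, had 34.8, 22.2 and 67.3 CPM in ERI-R, against 0.217, 1.17 and 0.524 CPM in Control. It was almost without counts in Control (23 over the 3 libraries), and rose by a log2 fold change of 6.01 (adjusted p = 0.00053). Bcat1, the cytosolic transaminase of branched-chain amino acids, had 1.29, 0.763 and 0 CPM in ERI-R, against 51.0, 41.3 and 49.4 CPM in Control. With 27 counts over the 3 ERI-R libraries, its log2 fold change was -6.04 (adjusted p = 0.00080). The transaminase Got1 (-1.37, lost without Control 1 at -1.21, in the 8 libraries with macrophage RNA at -1.09 and in the 2 groups alone) and the amino acid transporter Slc38a2 (-1.33, lost without Control 1 at -1.33, Control 2 at -1.40, Control 3 at -1.16, ERI-R 2 at -1.34 or ERI-R 3 at -0.88, with no filter and in the 2 groups alone) were lower. Ddit4, an inhibitor of mTORC1, was higher (1.08, lost without Control 1 at 1.19, Control 2 at 1.05, Control 3 at 1.03 or ERI-R 1 at 1.11, with no filter, in the 8 libraries with macrophage RNA at 1.04 and in the 2 groups alone), as log2 fold changes.

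Of 19 aminoacyl-tRNA synthetases, which include targets of ATF4, 1 was higher, Farsb (log2 fold change 0.96, lost without Control 1 at 1.03, Control 2 at 0.85, Control 3 at 1.04 or ERI-R 2 at 1.02, with no filter, with the replicate block at 0.94, in the 8 libraries with macrophage RNA at 0.88 and in the 2 groups alone), with a median of -0.25. Of 17 cytosolic heat shock genes, 2 were higher and 1 lower (median 0.11). The small heat shock proteins Hspb8 and Cryab were the higher ones. Hspb8 had 16.4, 22.3 and 23.7 CPM in ERI-R, against 0.361, 1.17 and 1.14 CPM in Control. It rose by 4.54 on the log2 scale (adjusted p = 0.0039) and was called in all 14 alternatives. Cryab had 51.8, 133 and 390.4 CPM in ERI-R, against 20.8, 13.8 and 10.1 CPM in Control, with ERI-R 3 the highest. The log2 fold change was 3.69 (2.78 if ERI-R 3 is left out), and it was not called without Control 3 (3.45). Hspa4l, an HSP110 relative, fell by 1.75 on the log2 scale (by 1.29 if ERI-R 3 is left out, called in both). Of 12 mitochondrial chaperones and proteases, 1 was higher, Hspe1 (1.24), called again without ERI-R 1 (1.58) and lost without each other library, at values between 0.97 and 1.34. Its call was also lost with no filter, with the replicate block (1.17), in the 8 libraries with macrophage RNA (0.96) and in the 2 groups alone. The median of that list was -0.08. With the macrophage RNA term, ERI-R against Control had 0 higher and 4 lower in ER folding and export, 0 and 5 in ERAD, 3 and 4 in eIF2 and stress sensing, 5 and 7 among ATF4 targets, 1 and 5 among tRNA synthetases, 3 and 1 in heat shock and 1 and 1 in mitochondria. Over all genes tested, 14.6% were called higher and 16.7% lower with that term. In PAC-R and VIN-R against Control, 0 genes of these lists were called by edgeR or DESeq2. By edgeR, 1 other ATF4 target had an unadjusted p under 0.05 in each.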

How the data were processed

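RNA of 12 libraries was measured by paired-end sequencing of polyadenylated RNA, 3 libraries each of ERI-R, PAC-R, VIN-R and Control, grouped by the labels' treatment. The authors deposited RSEM tables per gene, with expected counts, TPM (scaled by transcript length) and the effective and mean transcript length. Per the submitters' processing notes, the build was GRCm38 and the tools were RSEM 1.3.2, STAR 2.7.2b, cutadapt 2.4 and bcl2fastq 2.20.0.422. The sources used here do not give the annotation release or the strand setting. The deposited FPKM values were not used.

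Expected counts were rounded to whole numbers, which altered 15.3% of the values above 0, and tested with edgeR 4.0.16 (quasi-likelihood, robust, TMM scaling) in R 4.3.3, over all 12 libraries and the 14226 genes kept by its filter, with Benjamini-Hochberg adjustment over all of these and a threshold of 0.05. The SE of a log2 fold change is its size divided by the root of the F statistic. CPM uses unrounded expected counts and TMM scaling. Alternatives were DESeq2 1.42.0, its size factors in edgeR, no filter, at least 1 CPM in 3 libraries, the replicate number as a block, a term for macrophage RNA (Lyz2 above 100 CPM), only the 8 libraries with such RNA, only the 2 groups compared, and leaving out each library. The scripts were tested on simulated data. Depths and the counting floor stand in the report, and both cover counting error only.

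The members and the gene lists were chosen with earlier results of these data known. Genes were named where called without or with the macrophage RNA term, where the libraries with and without macrophage RNA did not overlap, or as the main genes of each branch. List genes were named where called in ERI-R against Control. Other genes were named after their values were seen. Ddit3 has 2 gene records, of which the one with more counts was used. Deviations of same-numbered libraries from their group means correlated above 0 in every pair between the resistant lines. For numbers 1 to 3 the correlations were 0.62, 0.607 and 0.764 between ERI-R and PAC-R. They were 0.221, 0.751 and 0.917 between PAC-R and VIN-R, and 0.0829, 0.588 and 0.671 between ERI-R and VIN-R. Library 1 of the first-named line correlated best with a library of another number each time. Number 3 is the library without macrophage RNA in each of these lines, so these correlations cannot show whether the numbers pair the libraries. The labels do not say what a number marks.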

Additional observations from a re-analysis of the deposited data

How the results depend on the processing

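Across alternatives no result changed direction where it was called. The members called in ERI-R against Control (2) numbered 9 with the macrophage RNA term, 1 in a fit of those 2 groups alone and 4 with DESeq2, and from 1 (without Control 1) to 4 (without ERI-R 1) when single libraries were left out. Against PAC-R (3) they numbered 1 with no filter on low counts, 9 with the macrophage RNA term, 5 in the 8 libraries with macrophage RNA, 1 in the 2 groups alone and 7 with DESeq2, and 2 to 4 without single libraries. Against VIN-R (4) they numbered 1 with no filter, 11 with the macrophage RNA term, 7 in the 8 libraries (1 higher, 6 lower), 0 in the 2 groups alone and 8 with DESeq2, and 1 to 4 without single libraries. The other 3 comparisons gave 0 under every alternative run. The cause of these changes was not tested, except that fewer libraries enter the fits of 2 groups or 8 libraries. The share of all genes called was computed for the main fit and the fit with the macrophage RNA term. In the 8 libraries it was computed for ERI-R against Control and VIN-R only. Under the other alternatives, a change in the count of members cannot be told from a change over all genes. Nupr1 kept its call against Control and PAC-R in 14 of 14 alternatives each and in 13 of 14 against VIN-R. The median over all genes in ERI-R against Control was -0.004, but 0.12 with DESeq2 and -0.13 with the replicate block. The member with the fewest counts was Dnajb9, with 6 in ERI-R 3, so a level there has a wide counting error.

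With the replicate number as a block, the calls numbered 2 against Control, 3 against PAC-R and 2 against VIN-R. Against VIN-R, where the correlation for number 1 was 0.0829, Xbp1 (-0.99) and Hsp90b1 (-0.87) lost their calls. Among the other pathway genes named in ERI-R against Control, Farsb (0.94) and Hspe1 (1.17) lost theirs with the block. In ERI-R against PAC-R (3) and PAC-R against VIN-R (0), the block changed no count. Between Control and the other groups, pairs numbered 1 and 3 correlated at -0.86 to -0.36.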
